A study of Equus caballus with 4 samples.

Results

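DKK1 and FRZB, secreted antagonists of Wnt signalling, and GLI1, the transcription factor that reports hedgehog signalling, were followed in equine sarcoids and in skin of the same horses. All gene probes whose RefSeq transcript belongs to one of these genes were read, which gave 10 probes, 1 for DKK1, 2 for FRZB and 7 for GLI1, of 43603 gene probes on the array. The genes are 3 of 25215 targets on the array, a target being a gene symbol or, where no symbol was matched, the transcript named by the file. All 10 probes passed the filter on dim signal, as did 33294 probes in all.

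Equine sarcoids are locally invasive fibroblastic tumours of horse skin. Each of 4 horses gave RNA from a sarcoid and from skin distant from the tumour, and both were hybridised to 1 two-colour Agilent array, with Cy3 on the sarcoid and Cy5 on the skin. The tissue samples were kept in a stabilising solution at -80 °C, 100 ng of total RNA entered the labelling, and no treatment is named. Age, breed and lesion type are not given in the sources used here. The free-text descriptions of samples 2 to 4 mention embryonic stem cells, against their tissue, horse and dye labels, and the latter were used. The dyes were swapped on 0 arrays, so any dye effect of a probe is part of its ratio. Median signals of the 4 arrays were 113.5 to 187 in the sarcoid channel and 162 to 236 in the skin channel.

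Wnt ligands signal through Frizzled receptors and their LRP co-receptors, and the outcome of the canonical branch is that beta-catenin enters the nucleus and acts on genes with TCF and LEF factors. DKK1 binds the LRP co-receptors and so blocks the canonical branch, whereas FRZB, a secreted Frizzled-related protein, binds Wnt ligands outside the cell. In the hedgehog pathway the ligand relieves the receptor PTCH1's hold on SMO, and GLI factors then switch on genes that include GLI1 itself, which is why its transcript is widely used as a readout. In skin, both pathways are best known for their part in the formation and cycling of hair follicles.

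None of the 3 genes differed between sarcoid and skin beyond the spread between horses, and for DKK1 and GLI1 that spread was itself the main feature of the data. DKK1 was several-fold higher in the sarcoid than in the skin of horses 1 and 4 and was not higher in horse 2. GLI1 was several-fold higher in the sarcoid of horse 3 and lower than skin in the sarcoids of the other horses. FRZB gave a low signal throughout and was above skin in horses 2, 3 and 4, by an amount that depended on the processing. In limma, 0 of the 3 genes passed at a Benjamini-Hochberg adjusted p under 0.05, and 0 had an unadjusted p under 0.05. Over all 19428 targets tested, 15% were called in either direction, 5.37% higher and 9.61% lower in the sarcoids. Higher targets made up 35.8% of those called, but 47.4% with Agilent's processed signals and 17.5% with median centring in place of loess. At the level of probes 0 of the 10 passed, and 0 had an unadjusted p under 0.05, against 17.4% called of the 33294 probes tested, 6.53% higher and 10.8% lower.

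The scanner software marks outlier spots, by non-uniformity or population flags on the spot or its local background in either channel. Marked spots were left out of the fits. This removed horse 3 for DKK1, horse 4 for 1 FRZB probe, horse 1 for 2 GLI1 probes and horse 2 for 1 other GLI1 probe. Values per horse are given below for these spots too and are named as marked.

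**Figure D1:**
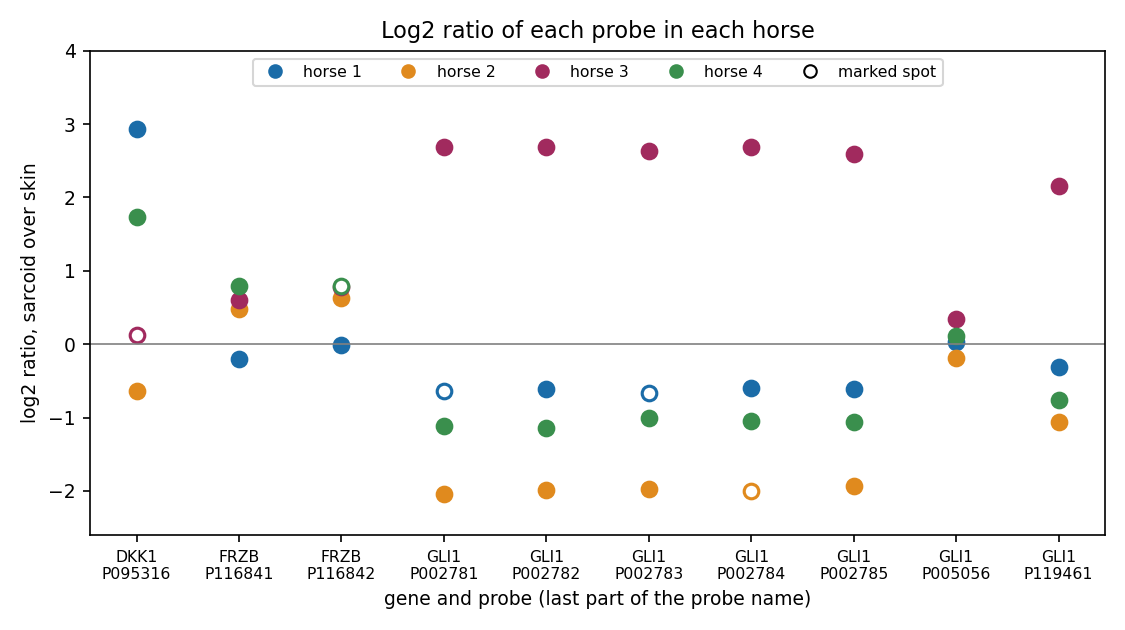
The y axis is the log2 ratio of sarcoid over skin, the x axis lists the 10 probes, colours stand for the 4 horses and open circles for marked spots. Horse 3 stands at 2.15 to 2.69 on 6 of 7 GLI1 probes while the other horses lie below 0 there, and DKK1 runs from -0.64 to 2.93.

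For DKK1 the unprocessed spot signal of the sarcoid was 1570.5, 229.5, 504 and 264 in horses 1 to 4, and that of the skin was 180, 546.5, 576 and 175. After background correction and normalization the log2 ratio of sarcoid over skin was 2.93 in horse 1, -0.64 in horse 2, 0.13 in horse 3 (marked spot) and 1.73 in horse 4. The sarcoid of horse 1 thus had 7.63 times the signal of its skin and that of horse 4 had 3.33 times, while horse 2 ran the other way and horse 3 was near equality.

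The DKK1 level moved in both tissues. On the normalized log2 intensity scale the sarcoids stood at 10.63, 8.08, 9.03 and 8.72 in horses 1 to 4 and the skins at 7.70, 8.72, 8.90 and 6.98. The sarcoid of horse 1 was well above every skin sample and that of horse 3 just above the highest skin, while the sarcoids of horses 2 and 4 lay within the range of the skins, so the groups overlapped. The skins of horses 1 and 4, the animals with the high ratios, were the lowest of the 4 skins. The SD over horses was 1.09 in the sarcoid and 0.90 in the skin, where the median over all targets was 0.35 in the sarcoid and 0.20 in the skin, and 98.0% of targets had a smaller SD than DKK1 in the skin.

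The mean log2 ratio of DKK1 was 1.34 ± 1.82 (SD, n = 3, horse 3 left out; 95% interval -0.59 to 3.27; limma adjusted p = 0.294). With the marked spot of horse 3 included it was 1.04 ± 1.60 (SD, n = 4; limma adjusted p = 0.311). Single horses weighed heavily on this mean, which was 0.55 without horse 1 (limma adjusted p = 0.702) and 2.33 without horse 2 (limma adjusted p = 0.0537). In the fit over probes, leaving out horse 2 brought the DKK1 probe past the threshold, from horses 1 and 4 alone (limma adjusted p = 0.0449). The interval includes both no difference and a difference of several-fold. DKK1 has a single probe here, so no other probe can be set beside it. The scanner's own log ratio in the deposited files, turned to sarcoid over skin on the log2 scale, put the horses in the same order, at 3.56, -0.68, 0.34 and 2.70.

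**Figure D2:**
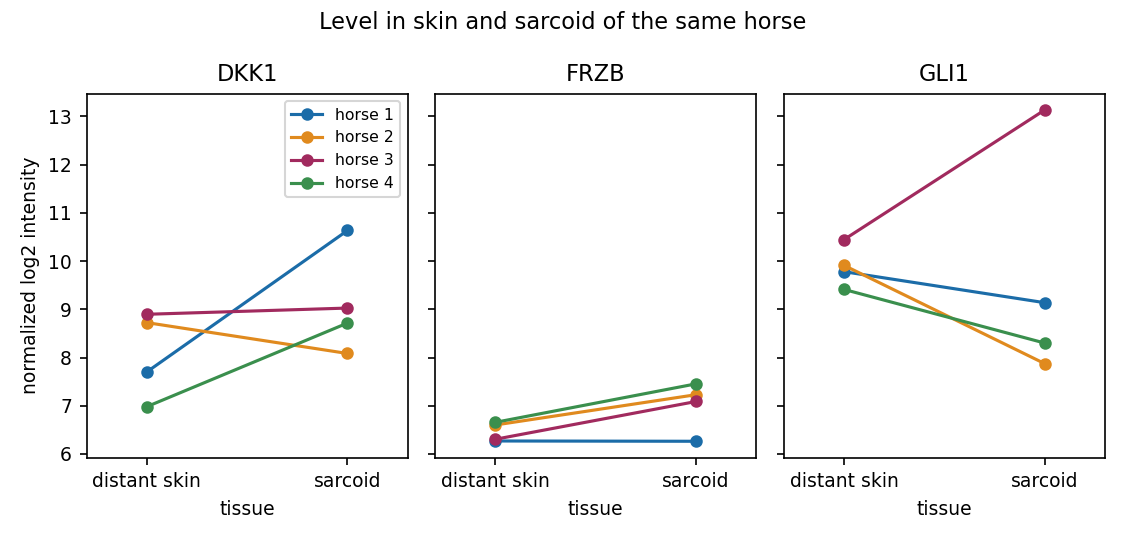
Normalized log2 intensity (y axis) of distant skin and sarcoid joined by a line for each of the 4 horses, with the probe of highest mean intensity of each gene and marked spots included. The lines of DKK1 and GLI1 run in different directions, the GLI1 sarcoid of horse 3 lies at 13.13, and FRZB stays between 6.26 and 7.45.

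FRZB was measured near the lower end of the array's range. Its brighter probe had sarcoid signals of 88, 143, 147 and 131 in horses 1 to 4 and skin signals of 74, 114, 92 and 122. The 95th percentile of the 153 negative control spots was 71 to 77.4 in the sarcoid channel and 59.7 to 68.2 in the skin channel of the 4 arrays. The spots of this probe were thus above the controls on every array and in both channels. Only 18.9% of targets had a lower mean intensity.

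The log2 ratios of this FRZB probe were -0.01, 0.63, 0.78 and 0.80 (horse 4 marked), and those of the dimmer probe were -0.20, 0.47, 0.60 and 0.79. Both probes put horse 1 lowest, at or below 0, and the other horses above 0. The dimmer probe was not well above background in either channel in horse 1. The probes of FRZB differed by at most 0.19 within a horse, less than the difference between horse 1 and the others, but they report on the same RNA and are not replicates. The FRZB sarcoid level ranged over 1.19 log2 units and the skin level over 0.39, and in both tissues horse 1 was the lowest.

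The mean log2 ratio of FRZB was 0.47 ± 0.42 (SD, n = 3, horse 4 left out; 95% interval -0.09 to 1.03; limma adjusted p = 0.222). With the marked spot of horse 4 included it was 0.55 ± 0.38 (SD, n = 4; 95% interval 0.11 to 0.99), with an unadjusted p of 0.0231 and a limma adjusted p of 0.0978. The size differed between alternatives: it was 1.01 with Agilent's processed signals (limma adjusted p = 0.253), 0.40 without background correction (limma adjusted p = 0.283) and 0.04 when the background model was fitted to all spots (limma adjusted p = 0.85). The deposited log ratios of the brighter probe were -0.43, 1.39, 2.06 and 2.09, each further from 0 than its ratio after the correction used here. The mean was above 0 and did not pass in any of the 16 alternatives tried, though some of these left it unchanged. The limma adjusted p lay between 0.0978 and 0.85.

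GLI1 was well above background in every sample on all 7 probes. Its probe of highest mean intensity had sarcoid signals of 557, 192, 7676.5 and 204 in horses 1 to 4, and skin signals of 774, 1260, 1760.5 and 1018. The sarcoid of horse 3 stood far above the others, while the 4 skins lay close together with horse 3 again the highest. The log2 ratio was -0.64 in horse 1 (marked spot), -2.04 in horse 2, 2.69 in horse 3 and -1.11 in horse 4. In horse 3 the sarcoid had 6.45 times the signal of the skin, and in horses 2 and 4 it had 0.244 and 0.463 times that signal. The deposited log ratios of this probe, at -0.69, -2.38, 2.80 and -1.15, gave the same order.

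The spread of GLI1 lay mainly in the sarcoids. Normalized log2 levels were 9.14, 7.88, 13.13 and 8.30 in the sarcoids and 9.78, 9.91, 10.45 and 9.41 in the skins of horses 1 to 4. The sarcoid levels ranged over 5.26 log2 units and the skin levels over 1.03, and no sarcoid level fell inside the range of the skins: those of horses 1, 2 and 4 were below every skin and that of horse 3 above every skin. The SD over horses was 2.41 in the sarcoid, larger than for 99.5% of targets, and 0.43 in the skin, larger than for 85.6%. In order of level, the sarcoid of horse 3 came first, then the 4 skins, then the sarcoids of horses 1, 4 and 2.

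Probes for GLI1 agreed on this order of horses with 1 exception. Over the 5 brightest probes the log2 ratio was -0.66 to -0.60 in horse 1, -2.04 to -1.93 in horse 2, 2.59 to 2.69 in horse 3 and -1.14 to -1.01 in horse 4. These probes differed by at most 0.13 within a horse. They were set apart by their wider range of ratios over the horses, and were also the brightest. The sixth, named A_69_P119461, gave smaller ratios in the same order, at -0.31, -1.07, 2.15 and -0.76. The seventh, A_69_P005056, had signals of 82 to 124.5 in both channels and ratios of 0.03, -0.19, 0.35 and 0.11. Its deposited log ratios were 0.09, -0.11, 1.16 and 0.54. All 7 probes carry the same transcript name in the files, and where they lie on it is not given in the sources used here. They report on the same RNA and are not replicates. Horse 3 had the highest ratio and horse 2 the lowest on each of the 7. The seventh was the dimmest and was below 0 only in horse 2. After the correction used here it showed little difference in any horse.

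Because horses ran in opposite directions, the mean log2 ratio of GLI1 was close to 0, at -0.15 ± 2.50 (SD, n = 3, horse 1 left out; 95% interval -2.79 to 2.48; limma adjusted p = 0.936). With the marked spot of horse 1 included it was -0.28 ± 2.06 (SD, n = 4; limma adjusted p = 0.848). Without horse 3 the mean was -1.58, from horses 2 and 4 alone (limma adjusted p = 0.0767), and without horse 2 it was 0.79 (limma adjusted p = 0.709). Without horse 4 it was 0.32 (limma adjusted p = 0.896). The probes measured in all 4 horses without a marked spot gave means between -0.26 and 0.07.

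**Figure D3:**
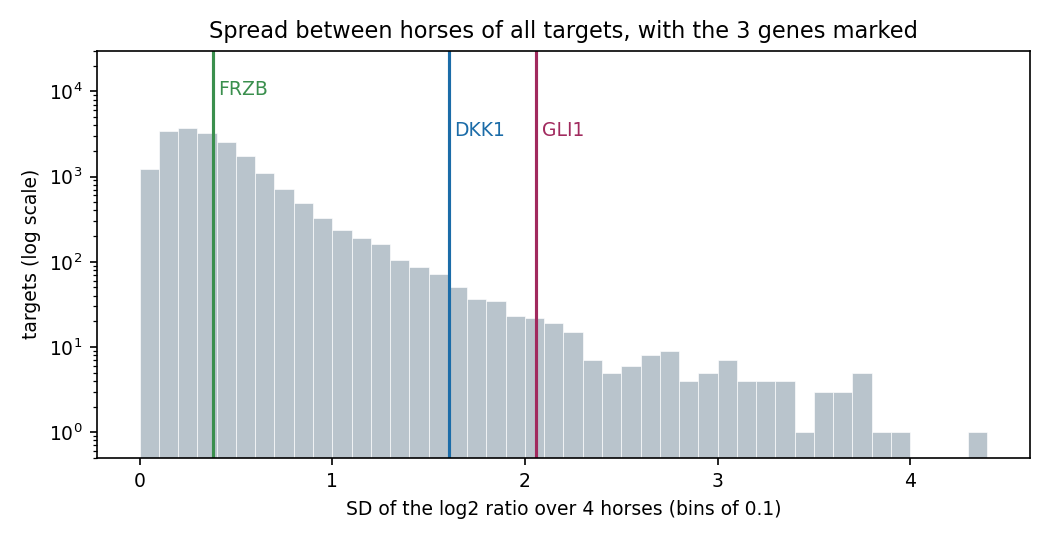
Number of targets (y axis, log scale) by the SD of the log2 ratio over the 4 horses (x axis, bins of 0.1), marked spots included, with vertical lines at DKK1, FRZB and GLI1. FRZB lies near the middle of the distribution at 0.38, and DKK1 at 1.60 and GLI1 at 2.06 lie in its right tail.

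Among 19607 targets with marked spots included, the median SD of the log2 ratio over horses was 0.34. The SD of GLI1 was 2.06, larger than for 99.4% of targets, that of DKK1 was 1.60, larger than for 98.6%, and that of FRZB was 0.38, larger than for 55.8%. GLI1 and DKK1 were brighter than 70.8% and 56.3% of targets, so neither was at the dim end of the array. FRZB was brighter than only 18.9% of targets. With Agilent's processed signals and marked spots left out, its SD was 1.29, against 2.24 for DKK1 and 2.71 for GLI1 (n = 3 each). Ranks were not taken under that processing. The ranks given here describe 4 horses and were given no test.

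The horses with extreme values were not the same for the 3 genes. DKK1 was highest relative to skin in horse 1, where GLI1 was moderately lower than skin and FRZB was at or below it. Horse 3 combined the highest GLI1 ratio with a DKK1 ratio near 0 and an FRZB ratio close to that of horse 4. Horse 2 was lowest for both DKK1 and GLI1, yet its FRZB ratio was above 0.

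Cell type markers were measured sparsely. Of 25 fibroblast markers 8 were measured with marked spots included, and their median log2 ratio was 2.94, 1.93, 2.85 and 2.14 in horses 1 to 4. The 2 measured of 25 keratinocyte markers had a median between -5.36 and -4.84. Both lists ran in the direction of the tissue labels in every horse. The 3 measured of 10 endothelial markers had a median of -1.84 in horse 3 against 0.03, 1.59 and 0.10 in horses 1, 2 and 4, their mean level ranging from 8.59 to 11.20 in the sarcoids and 9.21 to 9.92 in the skins. The 4 of 12 macrophage and dendritic cell markers had a median of -0.17 in horse 3 against 0.72 to 1.32, with mean levels of 9.08 to 9.87 in the sarcoids and 8.56 to 9.05 in the skins. The 3 of 15 lymphocyte markers had a median of -0.13 in horse 3 against 0.24 to 1.20, with mean levels of 7.46 to 9.48 in the sarcoids and 7.80 to 8.75 in the skins. The 6 of 10 melanocyte markers had a median of -1.38 in horse 3 against -0.61 to -0.09, with mean levels of 7.26 to 7.88 in the sarcoids and 8.45 to 8.87 in the skins. The 1 measured smooth muscle and pericyte marker was at -0.88 in horse 3 against -0.64 to 0.92. Of the 11 marker lists with a measured gene these 5 were lowest in horse 3, the animal with the highest GLI1, and the other lists were lowest in another horse. Not every gene followed the median of its list. SELE, PMEL and TYRP1 were lowest in horse 1, and CSF1R was lowest in horse 4, at 0.90 against 0.92 in horse 3. The other measured genes of the 5 lists were lowest in horse 3. Sweat and sebaceous gland markers were highest in horse 3, at -2.63 against -3.30 to -2.68. The part of any of these lists in the result was not tested. Of the 21 markers of hair follicle and dermal papilla 0 were measured by name. In whole tissue, fewer cells of a type and less RNA per cell cannot be told apart.

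Other genes of both pathways were few on the array by name, since 31502 probes carry an Ensembl transcript that is not named here. Of 220 other genes in the Wnt and hedgehog lists 14 were tested, and 0 were higher, 2 lower and 12 did not pass in limma, a share near the 15% called over all targets. At an unadjusted p under 0.05 the counts were 0 and 2, against 2640 higher and 3393 lower of all 19428 targets. Their median log2 ratio was -0.21, against 0.00 over all targets. None of the 23 Wnt receptors and none of the 18 hedgehog ligands and receptors in the lists was measured by name, so PTCH1, SMO and the Frizzled receptors are not analysed here. DKK1 and FRZB were the only 2 of 19 secreted Wnt antagonists measured.

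**Figure D4:**
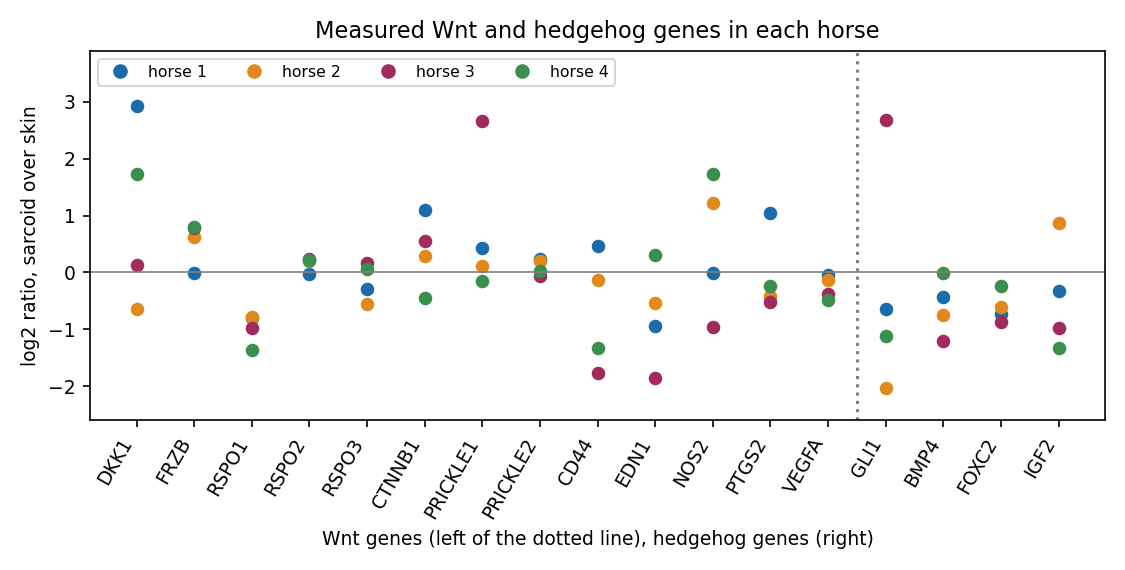
Log2 ratio of sarcoid over skin (y axis) in each of the 4 horses (colours) for the 17 measured genes of the Wnt and hedgehog lists (x axis), marked spots included. RSPO1 and FOXC2 lie below 0 in every horse, and PRICKLE1 reaches 2.66 in horse 3.

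Among ligands and their helpers, 3 R-spondins were measured, secreted proteins that strengthen the response to Wnt by sparing its receptors from turnover. RSPO1 had log2 ratios of -0.81, -0.78, -0.98 and -1.38 in horses 1 to 4. Every horse was below 0. RSPO1 fell by 0.99 ± 0.28 on the log2 scale (SD, n = 4; limma adjusted p = 0.0127), and it still passed when any single horse was removed (limma adjusted p 0.029 to 0.048). The call was lost when the background model was fitted to all spots, with marked spots left out afterwards (limma adjusted p = 0.236) or kept (0.223). It was also lost when sarcoid and skin were compared without pairing by horse (0.475). RSPO1 itself had no marked spot. With marked spots left out of the background fit alone and their values kept, it passed (limma adjusted p = 0.012).

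RSPO2 was not well above background on any skin array, with mean log2 levels of 6.39 in the sarcoid and 6.23 in the skin. Its mean log2 ratio was 0.16 ± 0.12 (SD, n = 4; 95% interval -0.12 to 0.44; limma adjusted p = 0.402), with horse 1 at -0.02. For RSPO3 the mean was -0.16 ± 0.33 on the log2 scale (SD, n = 4; limma adjusted p = 0.557), with the probe detected above background in 1 of the 4 sarcoids. Neither passed the test.

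Of the measured genes inside the cell, CTNNB1, which encodes beta-catenin, averaged 0.37 ± 0.64 on the log2 scale (SD, n = 4; limma adjusted p = 0.399), with horse 1 highest and horse 4 at -0.45. PRICKLE1, a protein of the planar cell polarity branch of Wnt signalling, stood at 0.43, 0.12 (marked spot), 2.66 and -0.16 in horses 1 to 4. Its sarcoid level was 8.17 to 10.89 and its skin level 8.03 to 8.33. The mean of 0.98 ± 1.49 (SD, n = 3, horse 2 left out) did not pass (limma adjusted p = 0.347). PRICKLE2, of the same branch, averaged 0.10 ± 0.14 (SD, n = 4; limma adjusted p = 0.626), with horse 3 lowest at -0.07. These genes, and the genes named next other than FOXC2, were singled out after their values were seen.

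Of 5 measured genes that Wnt signalling can switch on, CD44, EDN1, NOS2, PTGS2 and VEGFA, 0 passed, with means between -0.76 and 0.49. Of the other 3 measured genes in the hedgehog target list, BMP4 and IGF2 did not pass, at -0.65 and -0.44. FOXC2, a forkhead transcription factor of mesenchyme, fell by 0.61 ± 0.27 on the log2 scale (SD, n = 4; limma adjusted p = 0.0472). That call was lost under 8 of 15 alternatives, among them each of horses 1, 2 and 3 left out (limma adjusted p = 0.163, 0.145 and 0.129), and its other probe did not pass the filter on dim signal. The FOXC2 levels were low, at 6.33 to 6.50 in the sarcoids and 6.74 to 7.20 in the skins. Its probe was well above background in 3 of the 4 sarcoids. In horse 3, where GLI1 was high, BMP4, IGF2 and FOXC2 stood at -1.21, -0.99 and -0.87.

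The named genes whose 4 ratios lay nearest to those of each member, by Euclidean distance over the 4 horses among 791 named targets, were found as a description. For DKK1 they were AKR1C1 at a distance of 0.68, RAI2 at 1.57 and IL15 at 1.64. AKR1C1, an aldo-keto reductase, had ratios of 3.03, -0.25, 0.52 and 1.35 and so shared the high values of horses 1 and 4. For GLI1 they included FCER2, the low-affinity IgE receptor, at 1.80 and SERTAD4 at 1.96. SERTAD4 reached 2.38 in horse 3, but stood at 0.26 in horse 4. For FRZB they were NFYB at 0.46, NAP1L3 at 0.48 and CCDC77 at 0.51, and 62 unnamed targets lay nearer than the first of these.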

How the data were processed

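The deposited scanner files hold spot and local background intensity values of each channel on a linear scale. The submitters' processing notes name Agilent Feature Extraction, version 11.5.1.1. The scanner software had subtracted background and balanced the dyes in its processed intensity columns, per the file headers. The deposited value table is the scanner's log10 ratio of Cy5 over Cy3, from which it differed by at most 0; its column medians were 0, -0.00262, -0.0118 and 0. Other columns are flags. No spot was saturated; 67.2% to 80.7% of gene spots were well above background per channel, the 4 arrays share 1 slide and scan day, and their log2 ratios correlated at 0.605 to 0.733 between horses. The number of arrays limits the precision.

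Median signals were corrected with normexp (offset 50) after spots marked as outliers in either channel (3.85% to 4.40% of gene spots) were left out, and then normalized within each array by loess, control spots carrying weight 0 (R 4.3.3, limma 3.58.1). The offset was added to both channels, which draws the log2 ratios of dim spots towards 0. Spots of 1 probe were averaged. A probe was kept if it had 2 or more values and if either channel was well above background in 3 or more of the 4 horses. A target is its probe of highest mean intensity over all 4 arrays, marked spots included, so that a missing dim array does not favour a probe; this rule for marked spots was set after values were seen. The log2 ratios, 1 per horse and so paired, were tested against 0 with limma (lmFit, eBayes; two-sided), and p-values were adjusted by Benjamini-Hochberg over all targets or all probes. Normalized levels are channel values after quantile normalization of mean intensity between arrays, marked spots included. Of 3437 probes with a RefSeq accession 2332 matched the horse RefSeq gene table (assembly TB-T2T). That gene table served for names and, through chromosome and start position, for the order of neighbours. Sequences are not used here.

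The text names all probes of the 3 genes, every measured Wnt ligand, receptor and antagonist and hedgehog ligand, receptor and intracellular gene, called members of the other lists, and the 3 nearest named genes, of which 1 is not reported here. The genes and lists were chosen with earlier results of these data known. On simulated ratios of 19428 targets with the real spread, the test recovered 30% of 100 targets shifted by 1 log2 unit and 66% of 100 shifted by 2, with 3 false calls. The shifted targets were drawn at random from all targets, so these shares do not describe genes with the spread of DKK1 or GLI1. Far fewer targets were shifted than the 15% called in the data, and the adjusted p depends on that share. Alternatives covered background correction, outlier spots, normalization, filter, probe choice, pairing and each horse left out.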

Additional observations from a re-analysis of the deposited data

Results flagged for a closer look

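Of 44 sets of 4 horses examined (ratios and levels of the 10 probes, and ratios of the other pathway genes), 1 held a horse far from the rest. The log2 ratio of RSPO2 in horse 1 was -0.02, against 0.20 to 0.23 in the other horses. Chance marks about 1 set in 20 at this limit, and RSPO2 was not well above background on any skin array. The high GLI1 value of horse 3 did not reach that limit on any of its probes.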

How the results depend on the processing

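DKK1 and FRZB kept their direction and did not pass under any of 16 alternatives each, the DKK1 mean ranging from 0.55 to 2.33 and the FRZB mean from 0.04 to 1.01. Some alternatives left a mean as it was and are no check of it. For each gene these were both filters, both separate-channel fits and leaving out the horse already missing. The mean over probes left DKK1 unchanged, and choosing the probe by unmarked spots left DKK1 and FRZB unchanged. GLI1 did not pass in any of 16 but turned above 0 in 4: 0.085 with the background model fitted to all spots, 0.34 with the probe chosen by its unmarked spots, and with horse 2 or horse 4 left out, its mean over the horses left out ranging from -1.58 to 0.79. Of the members' probes 0 to 1 were called with a horse left out, the 1 being that of DKK1 from horses 1 and 4. Targets higher in sarcoid numbered 1043, but 46 with the background model fitted to all spots and outliers left out afterwards, 94 with no outlier left out, 1754 with Agilent's processed signals, 541 with median centring, and 349 to 772 with a horse left out. Targets lower numbered 1868, but 104 and 147 under the first pair of these and 1035 to 1376 with a horse left out. With Agilent's processed signals 1947 were lower, and with median centring 2545. Of the other pathway genes 2 were lower, but 0 under that same pair, 1 without background correction, 1 with no filter, 1 with the strict filter, 1 without pairing and 1 to 2 with a horse left out; 1 was higher with Agilent's processed signals, RSPO2 at 1.17. On all spots the fitted background SD reached 1394 and 1536 in horse 3, against 0.705 to 1.56 without the outliers; beyond that the cause was not tested. Separate channels with the horse as a replicate block gave the same 1043 and 1868 targets by construction, and without the block 863 and 1729. Keeping marked spots' values and choosing probes by unmarked spots were added after the data were seen, as were all alternatives for the pathway counts, the R-spondins and FOXC2. FOXC2 did not pass the strict filter and has no value there. Signal close to background limits what can be read from FRZB, RSPO2, RSPO3, FOXC2 and the dimmest GLI1 probe.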

Other observations

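The shape of the GLI1 ratios was uncommon on the arrays. A ratio of at least 2 in horse 3 with every other horse below 0 was found for 6 of 19607 targets (0.0306%), and GLI1 was the only named one. The shape of DKK1, with horses 1 and 4 at 1.5 or more and horses 2 and 3 at 0.2 or less, was found for 3 targets, and DKK1 was the only named one. Only 791 of the 19607 targets carry a name. Both limits were set after the values were seen, so these counts describe the genes and test nothing.

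Few neighbours of the genes were measured. Of the 25 annotated genes on each side of GLI1 in the RefSeq gene table, 3 were measured by name. Counted in genes from GLI1, OS9 lay at 13, CYP27B1 at 19 and ZBTB39 at -20, and no nearer gene was measured by name. In horse 3, where GLI1 was at 2.69, OS9 stood at 0.17, CYP27B1 at 0.08 and ZBTB39 at -0.07. UBE2D1, 19 genes away and the only neighbour of DKK1 measured, was at -0.37 in horse 1 and -0.46 in horse 4, where DKK1 was at 2.93 and 1.73. None of these 4 neighbours passed in limma (adjusted p 0.0972 to 0.854).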
